A study of Mus musculus with 11 samples.

Results

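The clock genes described here are 10 transcripts, Arntl, Npas2, Clock, Dbp, Tef, Per1, Per2, Per3, Ciart and Nr1d1, chosen by symbol from the 31053 genes of the tables. They were followed in every spatial section of mouse liver after acetaminophen (APAP, paracetamol), which in overdose destroys the hepatocytes nearest the central veins. There were 11 sections: 3 of uninjured liver (0 h, replicates 2, 3 and 4), pairs lettered A and B at 24 h and at 36 h, and 4 at 48 h lettered A to D. The animals were wild-type C57BL/6JCrl mice, male unless stated otherwise and 8 to 12 weeks old, kept on a light-dark cycle and fasted before an intraperitoneal dose. By the methods 1 mouse stands behind each time in this assay, but the labels do not tie sections to mice. The p-values measure the spread between sections, and if each time is 1 mouse, a difference between times cannot be told apart from a difference between animals. The clock hour of collection is not given in the sources used here. The 24 h and 48 h collections lay 24 h apart by their labels and the 36 h collection 12 h from each.

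The circadian clock is a loop of transcription that runs in nearly every cell and is strong in hepatocytes. BMAL1 (the product of Arntl) pairs with CLOCK or NPAS2 and switches on genes that carry E-boxes, among them the Period genes, Ciart, Nr1d1 and Dbp, and the PER proteins, CIART and the nuclear receptor REV-ERBalpha (Nr1d1) then repress the activators or their transcription. The PAR-bZIP factors DBP and TEF carry the rhythm to further genes through D-boxes, so that in liver the activator transcripts and the E-box and D-box transcripts peak at opposite times of day.

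The promoters of 3 members called at 36 h, Ciart, Per3 and Arntl, are printed below because they hold letters that match the sites of these factors. RefSeq start sites on GRCm38.p6, the sequence behind the mm10 build of the tables, gave windows of 300 bases (250 before and 50 after the start) for 9 of the 10 members, and Per2 had no entry. The letters searched on both strands were the E-box CACGTG, the E'-box CACGTT, the D-box TTANNTAA (which includes TTATGTAA) and the REV-ERB/ROR element, AGGTCA preceded by AANT. Matches are in capitals and the rest is in lower case, 5′ to 3′ on the strand of the gene.
Ciart (chr3:95882179-95882478, - strand): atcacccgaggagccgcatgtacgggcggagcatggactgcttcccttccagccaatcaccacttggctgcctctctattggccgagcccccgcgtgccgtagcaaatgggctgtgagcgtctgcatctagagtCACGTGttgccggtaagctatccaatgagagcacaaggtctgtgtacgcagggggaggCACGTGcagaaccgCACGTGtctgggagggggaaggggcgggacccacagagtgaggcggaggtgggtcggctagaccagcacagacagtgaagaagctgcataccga
Per3 (chr4:151044616-151044915, - strand): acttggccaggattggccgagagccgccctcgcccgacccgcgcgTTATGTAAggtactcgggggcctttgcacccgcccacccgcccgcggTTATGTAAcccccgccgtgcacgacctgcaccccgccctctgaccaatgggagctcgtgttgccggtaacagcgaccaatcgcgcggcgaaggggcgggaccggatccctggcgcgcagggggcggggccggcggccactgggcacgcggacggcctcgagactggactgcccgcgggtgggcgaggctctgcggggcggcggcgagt
Arntl (chr7:113207261-113207560, + strand): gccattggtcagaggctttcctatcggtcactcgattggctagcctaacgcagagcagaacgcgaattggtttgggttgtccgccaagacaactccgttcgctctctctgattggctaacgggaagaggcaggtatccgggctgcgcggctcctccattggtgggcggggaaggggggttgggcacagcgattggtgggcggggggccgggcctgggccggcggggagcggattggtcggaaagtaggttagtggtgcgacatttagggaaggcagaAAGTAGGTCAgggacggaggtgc
The Ciart window held 3 E-boxes, at positions -116, -58 and -44 from the start, whereas 7.15% of all 32851 windows held 1 or more. Per3 had the D-box TTATGTAA at -205 and -158, a run of letters present in 0.938% of windows. Arntl carried the REV-ERB/ROR element 27 bases after the second of its 2 listed starts, and 0.219% of windows had a match. Of the windows not printed, Per1 and Tef each held 1 E-box, Tef also a D-box (TTANNTAA, in 6.0% of windows) and Nr1d1 an E'-box (4.68%). These letters were not found in the windows of Npas2, Clock and Dbp. A match is a string of letters, and no binding was measured here.

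Sections held 31292663 to 67045372 UMIs (counted transcript molecules) over 1490 to 3466 spots on tissue, each spot a small region that covers several cells, and the medians ran from 15169 to 29950 UMIs per spot. All 10 members passed the filter on low counts, and 3 of their 110 section values rested on fewer than 10 UMIs. Levels are given as CPM, UMIs per 1000000 of the section total after TMM scaling between sections. The scaling matters for comparisons with 0 h, because the TMM factors were 0.783 to 0.811 at 0 h and 0.983 to 1.17 after injury, and without them the median gene moved up by 0.37, 0.49 and 0.54 (log2) at 24, 36 and 48 h, against 0.05, 0.05 and 0.01 with them. Of the genes called against 0 h, 55.4%, 57.5% and 52.7% were higher at 24, 36 and 48 h with TMM and 80.4%, 94.1% and 93.7% with the total count. Hepatocyte markers were present in every section, and their summed level was 109800 to 114800 CPM at 0 h and 72900 to 99080 CPM after injury. The 7 mesenchymal markers summed to 250 to 286 CPM at 0 h, 229 to 566 CPM at 36 h, with 6 called higher and 1 lower, and 674 to 1469 CPM at 48 h. The 4 markers of mononuclear phagocytes summed to 409 to 434, 448 to 623 and 722 to 1327 CPM at those times, the 4 of cholangiocytes to 236 to 293, 597 to 902 and 325 to 1031 CPM, and the 3 of neutrophils to 1.96 to 7.66, 20.4 to 58.4 and 28.7 to 102 CPM. At 36 h against 0 h, 1 phagocyte marker was called higher, and of the cholangiocyte markers 1 was higher and 1 lower. At 48 h, 3 phagocyte markers and 1 cholangiocyte marker were higher. All 3 neutrophil markers were higher at both times. No listed marker was at 0 in any section, and 1.79% to 5.99% of UMIs were mitochondrial. In whole sections, fewer cells of a type and less RNA per cell cannot be told apart, and the part of cell content in the differences between times was not tested.

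More of the clock genes differed from uninjured liver at 36 h than at 24 h or 48 h. Against 0 h, 8 of the 10 members passed the test at 36 h (edgeR's quasi-likelihood test, Benjamini-Hochberg adjusted p under 0.05), where 29.2% of 14821 genes did: Dbp, Tef, Per2, Per3 and Ciart were higher (16.8% of genes were) and Arntl, Npas2 and Clock lower (12.4%). At 24 h, 3 members passed (Arntl, Npas2 and Clock, all lower) against 41.7% of all genes and 18.6% lower, and at 48 h again 3 (Per3 higher, Arntl and Clock lower) against 44.2%, made up of 23.3% higher and 20.9% lower. The 48 h calls depended on the scaling: by total count 4 members were called, all higher, namely Dbp (1.27, adjusted p = 0.00927), Tef (1.18, adjusted p = 0.00758), Per3 (2.90) and Ciart (2.17, adjusted p = 0.029), and Arntl and Clock were not. Between neighbouring times, 7 members differed from 24 h to 36 h, 5 higher and 2 lower, where 15.6% of genes did (7.04% higher, 8.58% lower). From 36 h to 48 h 7 differed as well, 2 higher and 5 lower, where 3.05% of genes did (1.62% higher, 1.43% lower). From 24 h to 48 h, 2 members differed (Dbp and Per3, both higher at 48 h) against 34.1% of genes and 16.2% higher. The median member moved by 0.90 (log2) from 24 h to 36 h and by -1.67 from 36 h to 48 h, while the median gene moved by 0.02 and -0.01. Arntl, Npas2, Clock and Nr1d1 had the opposite sign to the member median in both. The members were chosen with earlier results of these data known, so their counts and median beside all genes are a description. The comparisons of times share sections. Non-overlap of sections, given gene by gene below, was common among all genes. It held for 69%, 55.9% and 54.4% of genes at 24, 36 and 48 h against 0 h. From 24 h to 36 h it held for 54.1%, from 36 h to 48 h for 25.7% and from 24 h to 48 h for 54.8%. The comparisons of 36 h with 24 h and with 48 h depended on the sections fitted: with the 2 groups alone, no member passed from 24 h to 36 h or from 36 h to 48 h by the same test, and 8 and 9 had an unadjusted p under 0.05. DESeq2 over all sections called at least as many members in each comparison. The shares of all genes given here belong to the edgeR fit over all sections with TMM, not to these alternatives.

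**Figure D1:**
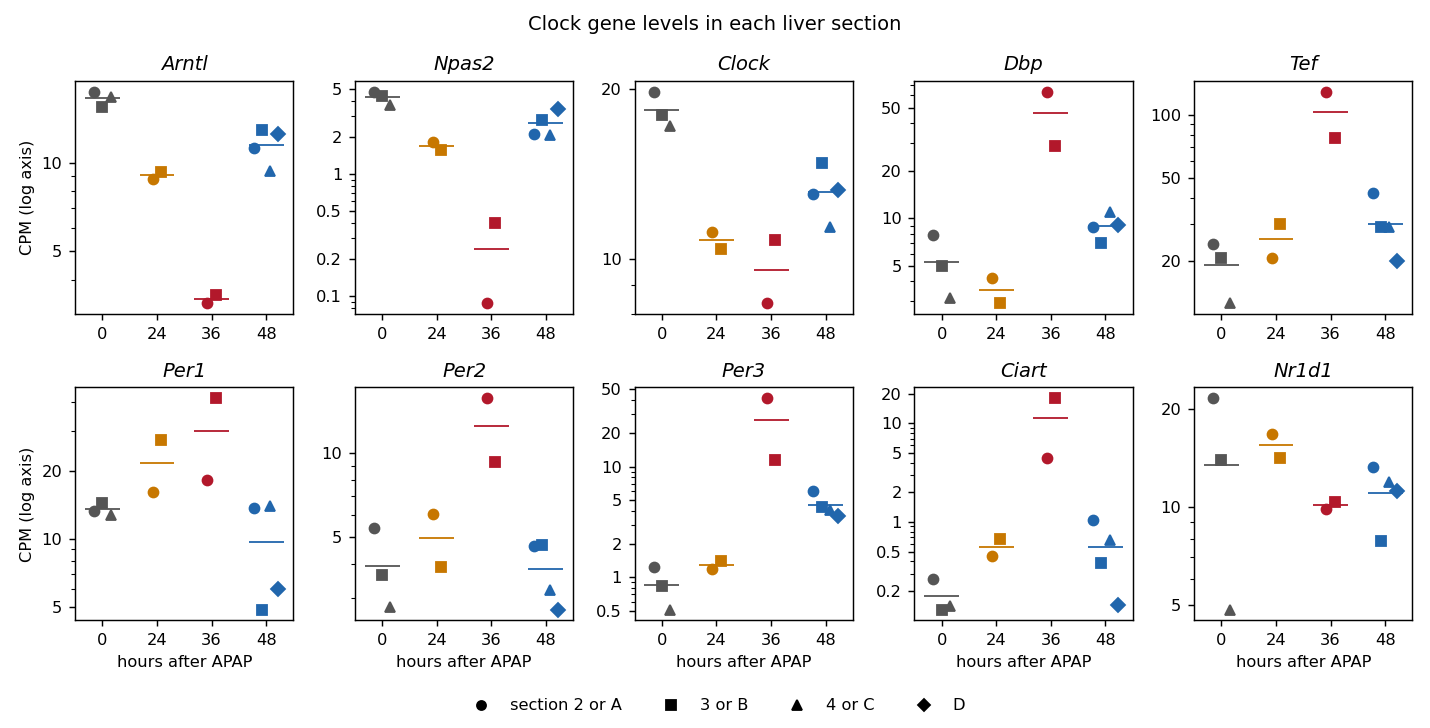
Level of each clock gene (CPM, log axis) in each of the 11 sections by hours after APAP, with 0 h uninjured; points are sections, their shape gives the replicate, and lines are group means. Arntl and Npas2 are lowest at 36 h, and Dbp, Tef, Per2, Per3 and Ciart are highest there.

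Arntl (chr7:113207465-113314126, + strand) encodes BMAL1, the partner that every activator complex needs. Its level was 17.4, 15.4 and 16.7 CPM in the 0 h sections, 8.80 and 9.32 at 24 h, 3.33 and 3.57 at 36 h, and 11.2, 12.8, 9.37 and 12.4 at 48 h. No section of 0 h overlapped any later section, and the 36 h sections lay below all others. The 48 h sections lay between 24 h and 0 h, with 48 h C only just above 24 h B. The fit gave a log2 change of -0.87 ± 0.14 (SE) at 24 h, -2.26 ± 0.16 at 36 h (adjusted p = 4.35e-05) and -0.52 ± 0.11 at 48 h (adjusted p = 0.00403), each against 0 h. From 36 h to 48 h Arntl rose by 1.73 ± 0.15 (adjusted p = 0.00281), a 3.32-fold difference. The fall at 24 h held under total-count scaling (-0.54, adjusted p = 0.00663), but the fall at 48 h did not, with 0.00 and an adjusted p of 0.982.

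Npas2 (chr1:39193731-39363236, + strand), the paralogue that can take the place of CLOCK, moved the same way and further. The 0 h sections had 4.75, 4.42 and 3.70 CPM, the 24 h sections 1.83 and 1.56, and the 48 h sections 2.13, 2.76, 2.08 and 3.45. At 36 h it was at 0.0869 CPM in A (3 UMIs) and 0.400 CPM in B (14 UMIs). The 36 h sections were far below the rest, and the lowest 0 h section was above the highest at 48 h. The change against 0 h was -4.12 ± 0.46 at 36 h (adjusted p = 0.000435), or -3.42 without 36 h A and -5.59 without 36 h B. At 24 h it was -1.33 ± 0.36 (adjusted p = 0.012), a call lost when 24 h A (adjusted p = 0.0514) or 24 h B (adjusted p = 0.0797) was left out. At 48 h it was -0.72 ± 0.28 with an adjusted p of 0.0537. The rise from 36 h to 48 h was 3.40 ± 0.45 (adjusted p = 0.0135), or 10.6-fold.

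Clock (chr5:76209868-76304792, - strand), the constant partner of BMAL1, moved least among the activators. Its sections read 19.8, 18.0 and 17.2 CPM at 0 h, 11.2 and 10.4 at 24 h, 8.34 and 10.8 at 36 h, and 13.0, 14.8, 11.4 and 13.3 at 48 h. Every 0 h section was above every later one, and 24 h and 36 h overlapped. Relative to 0 h the change was -0.76 ± 0.14 at 24 h (adjusted p = 0.00183), -0.94 ± 0.14 at 36 h (adjusted p = 0.00162) and -0.48 ± 0.12 at 48 h (adjusted p = 0.00636). Scaled by total count, the 48 h difference turned to 0.04 (adjusted p = 0.744), and that at 24 h was -0.44 (adjusted p = 0.0197). Clock did not pass the test from 24 h to 36 h (-0.17 ± 0.16, adjusted p = 0.462).

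Dbp (chr7:45705088-45710203, + strand) is the classical output factor of the liver clock. At 0 h it stood at 7.81, 4.99 and 3.14 CPM, at 24 h at 4.17 and 2.90, at 36 h at 63.4 and 28.8, and at 48 h at 8.82, 6.95, 10.9 and 9.07. Both 36 h sections were above all others, with no overlap, and the 48 h sections overlapped those of 0 h but not those of 24 h. Dbp rose by 3.11 ± 0.39 from 0 h to 36 h (8.63-fold, adjusted p = 8e-04) and by 3.69 ± 0.47 from 24 h (12.9-fold, adjusted p = 0.00341). Without 36 h A these were 2.43 and 3.01, both still called. It then fell by 2.36 on the log2 scale to 48 h (adjusted p = 0.0159), a call that ended without 36 h A (-1.68, adjusted p = 0.0537) or without 48 h B (-2.26, adjusted p = 0.0524). The 48 h level was above that of 24 h by 1.33 ± 0.41 (adjusted p = 0.0297), which was not called without 24 h A, 24 h B or 48 h C (adjusted p = 0.0867, 0.176 and 0.0618).

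Tef (chr15:81802421-81826863, + strand), the second PAR-bZIP factor, had 24.1, 20.6 and 12.5 CPM at 0 h, 20.5 and 30.0 at 24 h, 129 and 77.1 at 36 h, and 42.3, 29.0, 29.0 and 19.8 at 48 h. Only the 36 h sections stood clear of the rest, and the other times overlapped one another. The rise against 0 h was 2.43 ± 0.35 (5.40-fold, adjusted p = 0.00148), and that from 24 h was 2.03 ± 0.40 (adjusted p = 0.0126, or 0.0903 without 24 h A). Tef fell by 1.78 on the log2 scale from 36 h to 48 h (adjusted p = 0.0247). The call ended without 36 h A, 48 h B or 48 h C (adjusted p = 0.103, 0.0665 and 0.0663).

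The 3 Period genes encode the repressors of the loop, and they did not move alike. Per3 (chr4:151003652-151044665, - strand) had the widest range of the 3, with 1.23, 0.828 and 0.508 CPM at 0 h, 1.18 and 1.40 at 24 h, 41.8 and 11.6 at 36 h, and 6.08, 4.35, 4.06 and 3.55 at 48 h. Its 36 h sections were above those of every other time, and its 48 h sections were above those of 0 h and 24 h, with no overlap. The rise against 0 h was 4.94 ± 0.52 at 36 h (30.6-fold, adjusted p = 0.00043; 3.73 without 36 h A and 5.58 without 36 h B) and 2.37 ± 0.46 at 48 h (5.18-fold, adjusted p = 0.00238). Per3 was called against 0 h at 36 h and 48 h under every alternative run. From 36 h to 48 h it fell by 2.56 on the log2 scale (adjusted p = 0.0204), and by 1.36 with an adjusted p of 0.0678 without 36 h A. That call was also lost without 48 h B (adjusted p = 0.0576) or 48 h C (adjusted p = 0.057). Per3 lies within the span of Camta1 on the same strand in GENCODE M21. Camta1 read 13.1 ± 1.59 CPM at 0 h (SD, n = 3) and 12.4 ± 0.72 at 36 h (SD, n = 2).

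Per2 (chr1:91415982-91459324, - strand) had 5.37, 3.64 and 2.80 CPM in uninjured sections and 6.04 and 3.89 at 24 h. It reached 15.8 and 9.27 CPM at 36 h, with 4.65, 4.67, 3.21 and 2.73 at 48 h. Both 36 h sections lay above all others and the remaining times overlapped. Its rise against 0 h was 1.67 ± 0.34 (3.17-fold, adjusted p = 0.00594) and stayed past the threshold whichever section was left out, at an adjusted p of at most 0.0353. From 24 h to 36 h the change was 1.33 ± 0.38 (adjusted p = 0.0413), which lost its call without any 1 of 0 h 3, 24 h A, 24 h B, 36 h A, 48 h B and 48 h C, at adjusted p up to 0.19. The fall to 48 h was -1.72 ± 0.31 (adjusted p = 0.0234) and was not called without 36 h A, 48 h B or 48 h C (adjusted p = 0.0941, 0.0568 and 0.0647).

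Per1 (chr11:69095217-69109960, + strand), the Period gene that also responds acutely to hormones, gave 13.2, 14.4 and 12.8 CPM at 0 h, 16.1 and 27.2 at 24 h, 18.2 and 41.7 at 36 h, and 13.7, 4.87, 14.0 and 6.02 at 48 h. Sections of the same time were more than 2-fold apart at 36 h and at 48 h, and 48 h split into a higher pair (A and C) and a lower pair (B and D). The differences against 0 h were 0.68 ± 0.49 at 24 h, 1.15 ± 0.48 at 36 h (adjusted p = 0.0983) and -0.48 ± 0.41 at 48 h. None of the 6 comparisons passed for Per1 in edgeR's quasi-likelihood test, and 3 had an unadjusted p under 0.05. DESeq2 called 3 of them, at 36 h against 0 h (1.13, adjusted p = 0.0486), at 48 h against 24 h (-1.15, adjusted p = 0.031) and at 48 h against 36 h (-1.60, adjusted p = 0.00656).

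Ciart (chr3:95878503-95882251, - strand) encodes CHRONO, a repressor that binds the activator complex, and it showed the largest fold change of the members. It was scarce outside 36 h, with 0.264, 0.129 and 0.141 CPM at 0 h (12, 7 and 5 UMIs), 0.452 and 0.670 at 24 h, and 1.04, 0.382, 0.660 and 0.145 at 48 h. At 36 h it read 4.49 CPM in A (155 UMIs) and 18.0 CPM in B (632 UMIs). The 36 h sections were above all others, the 24 h sections were above those of 0 h, and 48 h overlapped both. Against 0 h the 36 h rise was 5.96 ± 0.81 (62.4-fold, adjusted p = 0.0011), or 6.64 without 36 h A and 4.64 without 36 h B. It was 4.35 ± 0.85 from 24 h (adjusted p = 0.0123), a call lost without 24 h A or 24 h B (adjusted p = 0.0901 and 0.0569). The fall to 48 h was -4.32 ± 0.63 (adjusted p = 0.0159), which missed the threshold without 48 h B or 48 h C (adjusted p = 0.0524 and 0.0502). An antisense transcript, C920021L13Rik, spans the whole gene and read 3.54 ± 0.75 CPM at 0 h (SD, n = 3) and 3.12 ± 0.46 at 36 h (SD, n = 2).

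Nr1d1 (chr11:98767932-98775333, - strand), the gene of REV-ERBalpha and a direct E-box target, passed no comparison in edgeR's quasi-likelihood test or in DESeq2, and none of its 6 unadjusted p-values was under 0.05. Its sections were 21.7, 14.0 and 4.83 CPM at 0 h, 16.8 and 14.2 at 24 h, 9.88 and 10.4 at 36 h, and 13.3, 7.87, 11.9 and 11.2 at 48 h. Uninjured sections spanned every later value, and 0 h 4 was at 0.223 of the level of 0 h 2 (95% counting interval 0.188 to 0.262). The largest difference was -0.61 ± 0.50 from 24 h to 36 h (adjusted p = 0.42). Without 0 h 4 the differences from 0 h were -0.83 at 36 h (adjusted p = 0.0469) and -0.70 at 48 h (adjusted p = 0.0309), so that 1 uninjured section decides those calls. The 3′ part of Nr1d1 overlaps Thra, on the opposite strand, over 1075 bases, and how reads there were assigned is not given in the sources used here.

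Ratios of members within a section do not depend on scaling between sections. There were 0.449, 0.325 and 0.188 Dbp UMIs per Arntl UMI in the 0 h sections and 0.474 and 0.312 at 24 h. The 36 h sections had ratios of 19.0 and 8.07 and those of 48 h 0.785, 0.541, 1.17 and 0.729. The 36 h sections lay far above and the 48 h sections moderately above those of 0 h and 24 h. The mean log2 level of Arntl, Npas2 and Clock minus that of the other 7 members was 1.2, 1.56 and 2.08 at 0 h, 0.18 and 0.00 at 24 h, -4.15 and -3.09 at 36 h, and -0.23, 0.74, -0.09 and 1.04 at 48 h. It separated 0 h from every later section and 36 h from all others, without overlap. This difference is a description, since the members were chosen with results known.

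**Figure D2:**
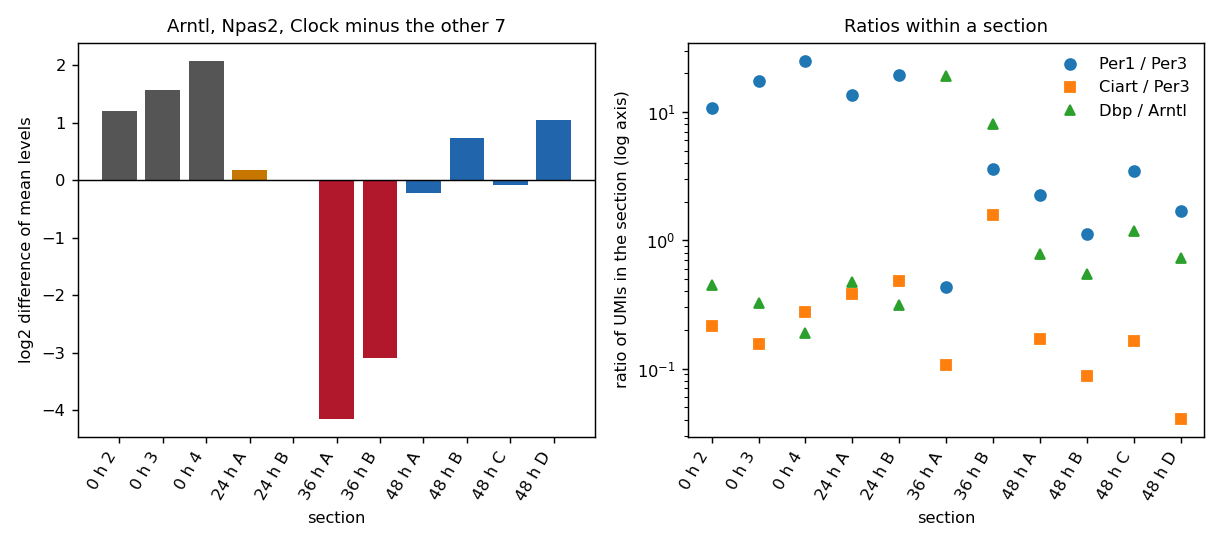
Left, the mean log2 level of Arntl, Npas2 and Clock minus that of the other 7 clock genes in each section (bars from 0). Right, ratios of UMIs within each section (log axis), where Dbp over Arntl reaches 19.0 and 8.07 at 36 h and Per1 over Per3 runs from 0.435 to 25.1.

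The 36 h sections agreed in direction against 0 h for the 8 called members but not in amount. Of the 10 members, 5 were more than 2-fold apart between 36 h A and B, where 9.53% of 12156 genes with a mean of at least 1 CPM were; between the 24 h sections no member was, against 3.57% of genes. Per3 in B was 0.277 of its level in A (95% counting interval 0.248 to 0.31), Dbp 0.454 (0.421 to 0.49), Per2 0.587 (0.51 to 0.675) and Tef 0.597 (0.569 to 0.627). In the opposite direction, Ciart in B was 4.02 times its level in A (3.36 to 4.82), Per1 2.29 times (2.09 to 2.52) and Npas2 4.6 times, on 14 against 3 UMIs (1.28 to 24.9). Arntl and Nr1d1 had ratios of 1.07 (0.824 to 1.39) and 1.05 (0.905 to 1.22). The intervals cover counting error only and come from 1 section each. A was the section richer in Dbp, Tef, Per2 and Per3, and B the one richer in Ciart and Per1. The same sections also differed in the share of mitochondrial UMIs, 1.79% in A and 4.53% in B, and in the summed markers of mesenchyme (229 and 566 CPM), red blood cells (271 and 1185 CPM), endothelia (202 and 325 CPM) and neutrophils (20.4 and 58.4 CPM). The part of these in the ratios was not tested. There were 0.435 Per1 UMIs per Per3 UMI in A and 3.60 in B, and 0.107 and 1.56 Ciart UMIs per Per3 UMI. At 48 h the same Per1 to Per3 ratio ran from 1.12 to 3.44, and at 0 h from 10.8 to 25.1.

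**Figure D3:**
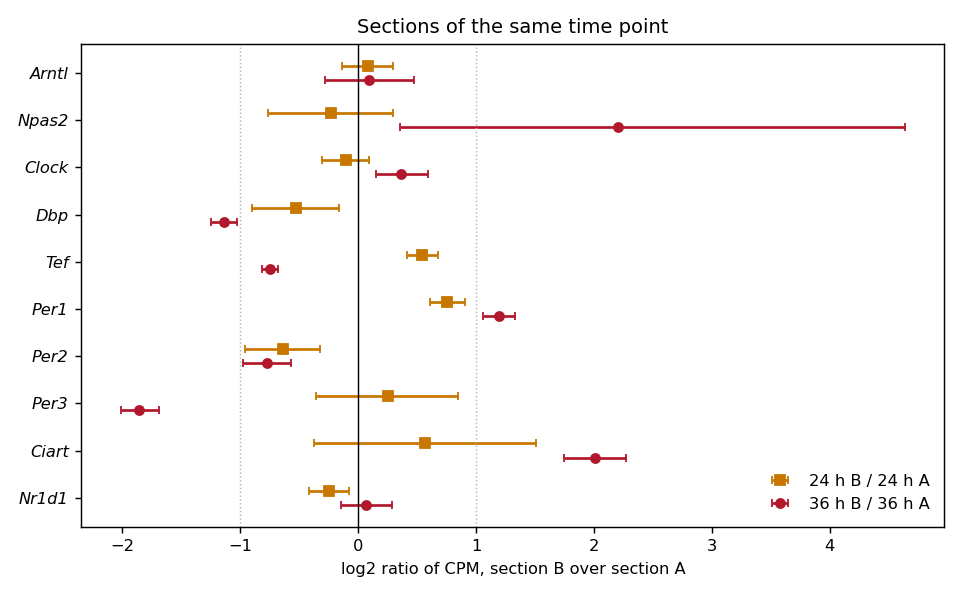
Ratio of each clock gene between the sections of 1 time point (log2 of B over A), at 24 h and 36 h, with 95% counting intervals; dotted lines mark 2-fold. At 36 h Per3 and Dbp lie left of the lines and Per1, Ciart and Npas2 right of them, and no gene passes them at 24 h.

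Genes that work beside the members were counted from lists. Among 12 other clock components, 3 were higher and 1 lower at 36 h against 0 h, where 29.2% of all genes were called. From 24 h to 36 h 2 were higher and 1 lower, where 15.6% of genes were called. The list medians were 0.15 and 0.25. Cry2, a cryptochrome that represses with the PER proteins, rose by 1.09 (log2) from 24 h to 36 h (adjusted p = 0.00886), and Hlf, the third PAR-bZIP factor, by 1.12 (adjusted p = 0.0106). Hlf had been lower at 24 h than at 0 h (-0.65, called) and did not pass at 36 h against 0 h (0.47). Nfil3, which competes with the PAR-bZIP factors for D-boxes, fell by 1.78 (adjusted p = 0.0115). Cry2 and Hlf then fell to 48 h (-0.93 and -0.95, adjusted p = 0.022 and 0.0247). The other REV-ERB gene, Nr1d2, was 43.8 and 26.3 CPM at 36 h against 27.5, 29.3 and 16.3 at 0 h and did not pass (0.52, adjusted p = 0.194). Cry1 was not called at 36 h either (-0.02 against 0 h, adjusted p = 0.973).

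Of 12 output genes that the liver clock is known to drive, 6 rose from 24 h to 36 h and the other 6 did not pass, with a list median of 1.47 (log2), while 15.6% of all genes passed. From 36 h to 48 h 1 rose and 5 fell, with a list median of -0.93, while 3.05% of genes passed. Upp2, a uridine phosphorylase, went from 7.46 and 5.46 CPM at 24 h to 341 and 433 at 36 h and 34.6 to 105 at 48 h, where uninjured sections had 88.5 to 126. Its log2 change was 5.90 to 36 h (adjusted p = 0.00119) and -2.73 onward (adjusted p = 0.015). Usp2, a deubiquitinase gene, was at 1.38 and 2.87 CPM at 24 h and 26.5 and 43.3 at 36 h, a rise of 4.07 (adjusted p = 0.00375). Noct (1.46), Gys2 (1.16), Por (1.80) and Wee1 (1.48) also rose. Noct and Gys2 had been lower at 24 h than at 0 h (-1.32 and -1.29, both called). At 36 h neither passed against 0 h (0.14 and -0.12). Noct read 15.3 CPM in 36 h A and 47.3 CPM in 36 h B, against 27.6 to 28.9 CPM at 0 h. Relative to uninjured liver, members of that list passing the test numbered 1 higher with 5 lower (24 h), 5 higher with 2 lower (36 h) and 3 higher with 6 lower (48 h), where 41.7%, 29.2% and 44.2% of all genes were called. Elovl3, an elongase of fatty acids that is also a marker of the central zone, fell by 6.18, 7.28 and 4.21 on the log2 scale at 24, 36 and 48 h.

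Among 6 genes that answer to glucocorticoids or temperature, Tsc22d3 (1.58) and Cirbp (1.23) rose from 24 h to 36 h, with a list median of 1.07. Of all genes, 15.6% were called in that comparison and 7.04% were higher. Both Tsc22d3 and Cirbp had been lower at 24 h than at 0 h (-1.95 and -0.90, both called). At 36 h neither passed against 0 h (-0.36 and 0.33). Fkbp5, a glucocorticoid target, was 7.35 to 9.74 CPM at 0 h, 28.2 and 82.5 at 24 h, 29.2 and 177 at 36 h, and 19.5 to 42.5 at 48 h. At 24 h against 0 h it was called higher (2.67), unlike Tsc22d3, which is also a glucocorticoid target. Fkbp5 was higher in B than in A at 24 h and at 36 h, as Per1 was. The part of such cues in the levels of the clock genes was not tested.

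**Figure D4:**
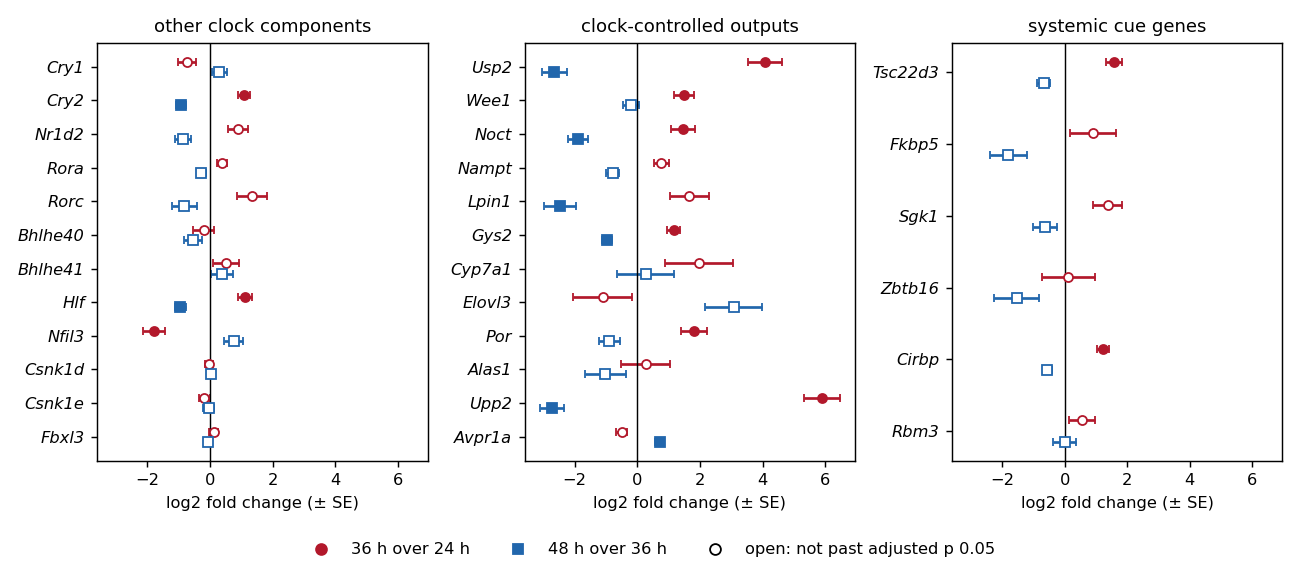
Fitted log2 fold changes (± SE) of the other clock components, the clock-controlled outputs and the genes that respond to systemic cues, from 24 h to 36 h (circles) and from 36 h to 48 h (squares); open symbols did not pass an adjusted p of 0.05. Upp2 and Usp2 lie furthest right from 24 h to 36 h and furthest left, with Lpin1, from 36 h to 48 h.

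Position in the lobule was compared within sections. Here and below, CPM of spot classes were scaled by TMM within each fit of classes. They do not compare directly with whole-section levels. Spots were ranked by the study's central and portal gene lists, which hold no member, and UMIs were summed over the central and the portal tercile (the outer 2 of 3 equal parts) of each section (495 to 1149 spots, paired by section in the fit). Glul, which marks the hepatocytes next to central veins and is not among the genes ranked on, differed by 1.94 (log2, central over portal) at 0 h but by 0.28, -0.02 and 0.45 at 24, 36 and 48 h. At 24 h and 36 h it did not pass (adjusted p = 0.0543 and 0.915 in the same edgeR fit). Central and portal there mean rank by the lists. Alb, also outside those lists, differed by -0.66 at 0 h and by -0.65, -0.50 and -0.68 after injury. In uninjured liver, 2 members were lower in the central tercile, where 15.7% of 13836 genes differed and 8.15% were lower. Per1 read 12.1, 11.8 and 11.4 CPM centrally and 14.0, 17.1 and 14.2 portally at 0 h, a difference of -0.37 ± 0.09 (adjusted p = 0.00512). Per2 read 4.04, 3.07 and 1.85 against 6.32, 4.06 and 3.06, or -0.57 ± 0.17 (adjusted p = 0.015). Both were lower centrally in each of the 3 sections, but Per1 lost its call without 0 h 3 (adjusted p = 0.218) and Per2 without 0 h 2 or 0 h 4 (adjusted p = 0.174 and 0.0655).

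At 24 h no member passed between the terciles by edgeR's quasi-likelihood test, while 25.2% of genes did, and 2 members had an unadjusted p under 0.05. These were Dbp, with 5.52 and 4.31 CPM centrally against 2.37 and 1.5 portally (1.32 ± 0.48, adjusted p = 0.0781), and Per3 (0.87 ± 0.39, adjusted p = 0.104). At 36 h, 4 members were lower centrally (15.6% of genes differed and 9.51% were lower): Tef (-0.43), Per2 (-0.62), Per3 (-0.53) and Ciart (-0.64). Lyz2 of phagocytes (0.80) and Col1a1 of mesenchyme (0.93) were higher in the central tercile at 36 h, and their part was not tested. Ciart was 4.15 CPM centrally and 4.87 portally in 36 h A and 13.5 and 23.6 in 36 h B, so that its difference came mainly from B, and without B it was -0.23 (adjusted p = 0.755). Without 36 h A 1 of the 4 calls was left, and without 36 h B none, with 4 members at an unadjusted p under 0.05. The rise of Dbp, Tef, Per2, Per3 and Ciart at 36 h was present in both terciles, where the lowest 36 h value of each was above its highest 0 h value. For Per3 these were 9.88 against 1.53 CPM centrally and 15.4 against 1.16 CPM portally. In whole sections, which hold these spots, 4415 of 14821 genes were higher in every 36 h section than in any 0 h section. The share of genes within terciles is not given here.

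At 48 h, 6 members were lower in the central tercile, where 50.5% of genes differed in either direction and 25.2% were lower. Markers of other cells moved with this comparison: Lyz2, of phagocytes, differed centrally over portally by -0.15, 0.67, 0.80 and 1.24 (0, 24, 36 and 48 h), and Col1a1, of mesenchyme, by -0.34, 0.50, 0.93 and 1.24. Their part in the zonal values was not tested. Nr1d1 had 10.3, 6.0, 10.3 and 9.47 CPM centrally and 19.0, 10.8, 14.2 and 13.7 portally, lower in each of the 4 sections (-0.67 ± 0.10, adjusted p = 2.98e-05). Tef differed by -0.52 ± 0.09, Arntl by -0.32 ± 0.09, Npas2 by -0.45 ± 0.15, Per2 by -0.35 ± 0.12 and Ciart by -0.80 ± 0.28. With 1 section left out, 3 of these calls ended: Npas2 without 48 h C (-0.33, adjusted p = 0.109), Per2 without 48 h B or D (adjusted p = 0.0667 and 0.0991) and Ciart without 48 h A (-0.50, adjusted p = 0.302). Total-count scaling left 3 of the 6 calls, and Arntl then differed by -0.04 (adjusted p = 0.74). The central to portal difference itself was lower at 48 h than at 0 h for Nr1d1 (by -0.78 ± 0.16, adjusted p = 0.00111) and Arntl (by -0.35 ± 0.13, adjusted p = 0.0375), where 33.8% of genes changed in this way and 19.4% in this direction. Arntl lost that call without 0 h 2 (-0.19, adjusted p = 0.315), without 0 h 3 or without any 1 of the 48 h sections. At 24 h and 36 h no member passed the same test against 0 h (17.2% and 13.1% of genes did), and 3 and 0 had an unadjusted p under 0.05.

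Spots rich in other cells were compared with spots poor in them, by terciles of the mean log level of the markers of mononuclear phagocytes and mesenchyme. At 48 h the rich tercile also had less albumin transcript (Alb, -0.94 log2), against 0.01 at 0 h. At 0 h and 24 h no member passed by edgeR's quasi-likelihood test (1.41% and 16.3% of 13930 genes did), and 1 and 3 members had an unadjusted p under 0.05. At 36 h, 5 members were lower in the rich tercile (25.7% of genes differed and 14.6% were lower): Dbp (-0.38), Tef (-0.48), Per2 (-0.58), Per3 (-0.71) and Ciart (-0.51), the same 5 that rose at 36 h. Alb differed by -0.50 there. Without 36 h B only 1 of these calls was left, and Ciart differed by 0.01.

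At 48 h, 8 members differed between the rich and poor terciles, as did 68.2% of all genes (34.9% higher, 33.3% lower). Arntl was 8.64, 9.13, 6.21 and 9.43 CPM in the rich terciles and 13.5, 16.8, 12.1 and 14.2 in the poor terciles, with no overlap (-0.75 ± 0.07, adjusted p = 2.06e-10). Npas2 (-0.80), Per2 (-0.61), Nr1d1 (-0.56), Tef (-0.53), Per3 (-0.32) and Clock (-0.24) were lower too. The call for Per3 (adjusted p = 0.0342) was lost without any 1 of 0 h 2, 3 and 4 and 48 h A, B and C, down to -0.12 (adjusted p = 0.512) without 48 h A. Under total-count scaling Clock turned to 0.15 and Per3 to 0.07. Dbp alone was higher in the rich tercile, by 0.28 ± 0.10 (adjusted p = 0.00994), with 8.49, 8.03, 12.7 and 11.9 CPM against 9.32, 7.54, 9.74 and 7.26: it was higher in B, C and D and lower in A. That call was lost without 48 h C (0.24, adjusted p = 0.0602) or 48 h D (0.13, adjusted p = 0.228). The rich to poor difference was lower at 48 h than at 0 h for Arntl (-0.83), Clock (-0.27), Tef (-0.52) and Nr1d1 (-0.41), where 41.4% of genes changed and 22.9% in this direction. Clock lost that call without any 1 of 5 sections (adjusted p up to 0.323), Tef without 0 h 3 or 0 h 4 (adjusted p = 0.0954 and 0.0684) and Nr1d1 without 0 h 3 (adjusted p = 0.115). At 24 h and 36 h no member passed that test in edgeR's quasi-likelihood fit, against 1.18% and 9.99% of genes, and 2 and 1 had an unadjusted p under 0.05. The part of the loss of hepatocyte RNA from the rich spots in these differences was not tested.

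**Figure D5:**
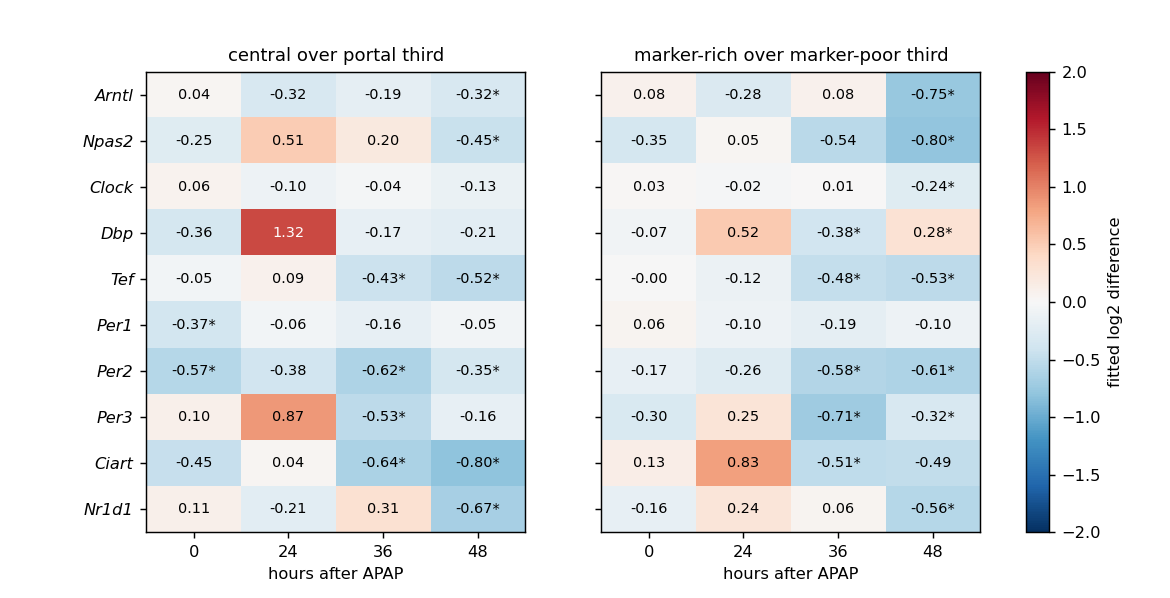
Fitted log2 differences of each clock gene within sections, by hours after APAP: left, central over portal tercile; right, the tercile rich in phagocyte and mesenchyme markers over the tercile poor in them; an asterisk marks an adjusted p under 0.05. At 48 h most values are below 0 in both panels, and Dbp is 0.28 in the right panel.

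Among injured sections, spots low in hepatocyte transcripts could be compared at 48 h alone. Such spots (below the 1st percentile of 0 h spots by a list of 6 genes that includes Cyp2e1) numbered 104, 24, 170 and 54 in sections A to D at 48 h and at most 16 in any section at 24 h or 36 h. The 0 h sections 2, 3 and 4 held 16, 30 and 23 of them and were not in the comparison. With Cyp2e1, a gene of the central list, taken off the hepatocyte list, 13, 4, 29 and 4 spots were low in 48 h A to D. Most of the class compared here therefore entered only with Cyp2e1 in the list. The part of low Cyp2e1 in the differences below was not tested. Against spots at least 3 grid steps away, 8 members differed, where 57.5% of 14257 genes did (28.7% higher, 28.8% lower). Dbp was higher in the low spots (0.34 ± 0.13, adjusted p = 0.0232), with 12.7, 13.7, 17.9 and 17.4 CPM against 12.0, 8.75, 14.2 and 11.1, higher in each of the 4 sections. Arntl (-0.77), Npas2 (-1.43), Clock (-0.44), Tef (-0.81), Per2 (-0.90), Ciart (-1.85) and Nr1d1 (-0.43) were lower. The call for Dbp was lost without 48 h C (adjusted p = 0.0711) or 48 h D (adjusted p = 0.105). Calls were also lost for Per2 without 48 h C (-0.62, adjusted p = 0.128), for Ciart without 48 h A or C (adjusted p = 0.095 and 0.0905) and for Nr1d1 without 48 h A (-0.27, adjusted p = 0.173). Total-count scaling left 3 calls, with Clock at 0.11 and Nr1d1 at 0.12.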

How the data were processed

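Visium sections (10x Genomics spatial 3′ v1) of snap-frozen liver were made into tables by the authors with Space Ranger 1.0.0 on mm10, per the labels. The deposited values are UMI counts per gene and spot, not normalised, with tissue masks and spot positions. Seurat 4.1.1 is also named in the submitters' processing notes. Spots on tissue were retained if they had 800 or more genes and no more than 20% mitochondrial UMIs, and their counts were added up section by section, as spots are not replicates. edgeR 4.0.16 (R 4.3.3) was fitted to all 11 sections with time as the only factor, TMM scaling, filterByExpr by time and robust quasi-likelihood tests (two-sided), with Benjamini-Hochberg adjustment over 14821 genes and a threshold of 0.05. The fit had 7 residual degrees of freedom. Sums over spot classes were fitted with section as a block; spots were thinned to 2000 UMIs for scoring alone, and classes under 20 spots in a section were left out. DESeq2 1.42.0 and other settings were alternatives. Counting intervals are exact 95% intervals and cover counting error only. Sections of 1 time were compared for identity, and none were copies. The comparison by terciles of phagocyte and mesenchyme markers was added after seeing the data. The planned list for hepatocyte-low spots, without Cyp2e1, left 1 injured section with 20 spots or more, so the list with Cyp2e1 was used. The members and the gene lists were chosen with earlier results of these data known. Named genes were all members, the listed clock, output and cue genes, and the 5 genes most like Arntl, Dbp and Per1. Promoter windows came from RefSeq (GRCm38.p6) and gene positions from GENCODE M21 (GRCm38), the same build as mm10.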

Additional observations from a re-analysis of the deposited data

Results flagged for a closer look

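For 6 results the difference between spot classes was itself different at 48 h from that at 0 h, by a test of the difference in edgeR's quasi-likelihood fit. They are 2 of 10 members in the zones, where 33.8% of all genes changed, and 4 of 10 in the marker terciles, where 41.4% did. For the central against the portal tercile these were Nr1d1, whose difference was lower at 48 h by -0.78 (log2), and Arntl, by -0.35. For the tercile rich in phagocyte and mesenchyme markers against the poor tercile they were Arntl (-0.83), Tef (-0.52), Nr1d1 (-0.41) and Clock (-0.27). Arntl in the marker terciles and Nr1d1 in the zones kept their calls under each alternative run. Clock, Tef and Nr1d1 in the marker terciles and Arntl in the zones lost their calls when certain single sections were left out, and Clock turned to 0.10 under total-count scaling. No member in any section of the 48 h group stood far from the other 3 by Dixon's test, and the groups of 2 and 3 sections are too small for it.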

How the results depend on the processing

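Across the comparisons of times, 1008 values of single genes kept their direction and side of the threshold under an alternative, 57 lost and 27 gained a call and 18 changed sign. DESeq2's size factors in edgeR, every spot under the tissue mask and leaving out hepatocyte-low spots changed no call. The spots left out were those low by the list without Cyp2e1, only 0 to 32 per section. The full mask restored 0 to 103 spots per section, so both changes were small. Leaving out the larger class defined with Cyp2e1 was not run. Counts of members called changed as follows, and the shares of all genes called under these alternatives are not given here. With the 2 groups alone they were 5 at 24 h against 0 h and 0 at 36 h against 24 h and at 48 h against 36 h. DESeq2 gave 5 at 48 h against 0 h. Total-count scaling gave 9 at 36 h against 0 h, with Per1 added (1.57, adjusted p = 0.021), 8 at 48 h against 36 h, with Clock added (0.55, adjusted p = 0.0483), and 4 at 48 h against 0 h, all higher. At 48 h against 24 h total-count scaling gave 4 and no filter 1. Leaving out 1 section gave 4 to 7 (36 h against 24 h), 2 to 8 (48 h against 36 h), 0 to 3 (48 h against 24 h) and 3 to 6 (48 h against 0 h); the 0 arose without 24 h A or B, where 2 and 1 members had an unadjusted p under 0.05. Between zones total-count scaling gave 2, 2 and 3 at 24, 36 and 48 h, outer quartiles 1 at 24 h and scores without thinning 1 at 24 h, and leaving out 1 section gave 1 to 2, 0 to 2 and 0 to 4 at 0, 24 and 36 h. For the marker terciles total-count scaling gave 1 at 24 h and 1 at 36 h, and leaving out 1 section 1 to 5 at 36 h. For hepatocyte-low spots they gave 3 and 5 to 8. The cause was not tested.

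Under total-count scaling the sign turned at 36 h against 0 h for Nr1d1 (0.01) and at 48 h against 0 h for Arntl (0.00), Clock (0.04), Per1 (0.05), Per2 (0.47) and Nr1d1 (0.23). In the marker terciles at 48 h it turned for Clock (0.15) and Per3 (0.07), and for Clock against 0 h (0.10). Between hepatocyte-low and far spots it turned for Clock (0.11) and Nr1d1 (0.12). With 1 section left out, signs turned for Nr1d1 against 0 h at 24 h (-0.25 to 0.67), 36 h (-0.83 to 0.08) and 48 h (-0.70 to 0.22), Per2 against 0 h at 24 h (-0.02 to 0.61) and 48 h (-0.25 to 0.23), Tef (0.00 to 0.55) and Ciart (-0.47 to 0.36) at 48 h against 24 h, Per1 at 36 h against 24 h (-0.21 to 0.95) and Ciart in the marker terciles at 36 h (-0.70 to 0.01).

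The section letters are shared by the injured times, but deviations of same-lettered sections correlated at 0.391 (24 h and 36 h), -0.144 and -0.168 (24 h and 48 h) and 0.0913 and -0.293 (36 h and 48 h), so the letters were not taken to pair the sections. A replicate block on the letter, over sections A and B of the injured times, called 2 members at 36 h against 24 h, 0 at 48 h against 36 h (8 at an unadjusted p under 0.05) and 1 at 48 h against 24 h.

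Hepatocyte-low spots at 24 h and 36 h were not run, as too few spots were left. Depth limited Npas2 at 36 h and Ciart at 0 h.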

Other observations

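The genes whose pattern over the 11 sections was most like a member's, among 9127 genes with a mean of at least 5 CPM, are given as a description by Pearson's r of log2 levels. For Arntl they were Nmt1 (0.951), Pnrc1 (0.942), Clpx (0.94), Ctnnb1 (0.932) and Snx15 (0.928). Clpx, a subunit of a mitochondrial protease, read 233 ± 18.5 CPM at 0 h (SD, n = 3), 126 ± 1.33 at 24 h (n = 2), 57.9 ± 0.99 at 36 h (n = 2) and 125 ± 18.1 at 48 h (n = 4). For Dbp they were Esrra (0.924), Cry2 (0.913), Marveld1 (0.886), Usp2 (0.884) and Plekhn1 (0.876), of which Cry2 and Usp2 are on the clock lists. For Per1 they were Zfp777 (0.958), Gde1 (0.937), Fbxo31 (0.936), Cdip1 (0.934) and Mknk2 (0.933). Fbxo31, a ubiquitin ligase subunit, ran from 26.4 to 70.4 CPM over the 24 h sections and from 34.2 to 91.3 CPM over those of 36 h, so that sections of the same time were more than 2-fold apart, as they were for Per1 at 36 h. Sections of the same time may share a liver, so the independent points may be fewer than 11.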
